A study of Mus musculus with 69 samples.

Results

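Genes of B cells and plasma cells were followed in kidney RNA of NZB/W F1 mice, a hybrid strain that develops lupus nephritis. The genes are Cd79a, Cd79b, Ms4a1, Cr2, Blk, Pou2af1, Prdm1, Mzb1 and Derl3, 9 of the 24538 gene symbols in the count tables. They were chosen by name, and all 9 passed the filter on low counts in every fit. RNASeq libraries came from 30 young mice aged 12 weeks, 27 nephritic mice aged 30 to 45 weeks and 8 mice in remission, treated at 36 to 50 weeks of age. Nephritic mice had over 300 mg/dl proteinuria and were untreated. Remission mice had been nephritic and received 1 dose of cyclophosphamide at 50 mg/kg with 6 doses each of CTLA4Ig (200 µg) and anti-CD40L (250 µg) within 2 weeks. They were taken 8 weeks later, having kept proteinuria at or below 30 mg/dl. Young and nephritic kidneys were collected every 4 h from zeitgeber time (ZT) 0, lights on, to ZT20, and remission kidneys at ZT0 and ZT12, with 4 mice at each. All kidneys were perfused before they were taken. The young and the other mice differ in age as well as in disease, and these cannot be told apart. Remission mice also differ from nephritic mice in age and drug treatment, which cannot be told apart from remission itself.

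In autoimmune nephritis, B cells enter the kidney and can settle near T cells, and some become plasma cells, which secrete antibody. The genes cover these steps. Cd79a and Cd79b encode the 2 chains that carry the signal of the B cell receptor, Blk a kinase that acts after it, Ms4a1 the surface protein CD20 and Cr2 the complement receptor CD21. Pou2af1 encodes a coactivator of immunoglobulin gene transcription, and Prdm1 the repressor Blimp-1, which directs B cells to the plasma cell state. Mzb1 and Derl3 encode proteins of the endoplasmic reticulum, where antibody is folded and where misfolded protein is removed. Some are not limited to these cells. Cr2 is also made by follicular dendritic cells, and Prdm1 by activated T cells, myeloid cells and endothelium.

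On mouse build GRCm38 (mm10) the surface and receptor genes lie at chr7:24897497-24901858 (Cd79a), chr11:106311341-106314562 (Cd79b), chr19:11249679-11266149 (Ms4a1), chr1:195136811-195176880 (Cr2) and chr14:63372837-63417187 (Blk). Pou2af1 lies at chr9:51213690-51240079, Prdm1 at chr10:44437174-44528558 and Derl3 at chr10:75893398-75895941. Exons of 8 of the 9 genes overlap no other annotated gene. Mzb1 shares exon sequence with 1 neighbour on the same strand, Spata24. Spata24 itself had a log2 difference of -0.004 (SE 0.062, adjusted p = 0.955) between nephritic and young mice.

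RefSeq promoter sequences, 250 bases before to 50 after an annotated start, were at hand for 5 of the 9 genes, Cd79a, Cr2, Pou2af1, Prdm1 and Derl3. Those of Prdm1 and Cr2 belong to a start inside the span of the gene given above, and the other 3 to its first base. The octamer ATGCAAAT, an element that Pou2af1's partner proteins bind in immunoglobulin promoters, was searched on both strands and found in none of the 5, and in 570 of all 32851 promoters (1.74%). A pair of promoters is shown because they hold the elements of the unfolded protein response, which plasma cells use to expand their secretory machinery. The Derl3 promoter held the ER stress response element, CCAAT and CCACG with 9 bases between them, on the reverse strand from base 95 to base 113. It occurred in 39 of the 32851 promoters (0.119%). The Pou2af1 promoter held TGACGTGG, an unfolded protein response element, from base 190 to base 197. It occurred in 222 promoters (0.676%), and the last bases of it also count as CCACG on the reverse strand. By itself, CCAAT was in 37.4% of promoters and CCACG in 32.8%. Capitals mark every match to these elements on either strand, and a match describes the letters and not a bound site.
Derl3, chr10:75893148-75893447, plus strand: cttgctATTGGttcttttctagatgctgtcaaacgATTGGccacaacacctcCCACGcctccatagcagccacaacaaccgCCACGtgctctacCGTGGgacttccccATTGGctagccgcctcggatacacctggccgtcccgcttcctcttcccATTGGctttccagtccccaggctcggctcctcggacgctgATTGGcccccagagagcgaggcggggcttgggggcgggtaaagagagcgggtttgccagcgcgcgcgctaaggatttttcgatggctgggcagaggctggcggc
Pou2af1, chr9:51213440-51213739, plus strand: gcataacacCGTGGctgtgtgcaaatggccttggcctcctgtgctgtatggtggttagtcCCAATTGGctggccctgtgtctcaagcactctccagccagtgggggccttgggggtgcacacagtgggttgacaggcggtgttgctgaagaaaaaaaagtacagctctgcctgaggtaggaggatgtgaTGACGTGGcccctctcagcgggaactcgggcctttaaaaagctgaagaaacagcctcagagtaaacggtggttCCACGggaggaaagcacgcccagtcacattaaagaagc

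Depth was lower in the remission libraries, with 13311278 to 21849912 counts, than in the young libraries (25257530 to 35744843) and the nephritic libraries (26596500 to 48075977). A few libraries bear on what follows. The young mouse ZT8LL had the highest level of 7 of the 9 genes among young mice, and the nephritic mouse HIL5RU, taken at ZT12, the highest of all 9 among nephritic mice. The nephritic mouse RX11RU was sequenced again, and over 17587 genes its repeat correlated with its own original at r = 0.978, which ranked 15 among 65 originals. The repeat was nearest to another nephritic mouse, RX11LU of ZT4, at r = 0.991. The other 3 repeats were nearest to their own originals. Ms4a1 was at 14.99 CPM, the count scaled to a TMM-adjusted library total, in the original of RX11RU, 1.06 CPM in its repeat and 1.39 CPM in RX11LU. Original libraries are used below, and results are also given without these mice where that was run and they move. The correlations and the test of the difference in time course were not run without RX11RU.

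The first question was whether transcripts of B and plasma cells were higher in nephritic than in young kidneys. All 9 genes were, by 1.75-fold (Prdm1) to 49.1-fold (Pou2af1) over the day. Among 17521 genes tested, 28.1% were higher in nephritic mice at an adjusted p of 0.05. The median log2 difference was 3.30 over the 9 genes and -0.03 over all genes. Whole kidney RNA cannot tell more cells of a type from more RNA per cell.

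Cd79a was at 0.119 to 8.59 CPM in young mice (median 0.323) and at 1.54 to 130.4 CPM in nephritic mice (median 13.03). The highest young value was that of ZT8LL, and the next was 1.498 CPM. The groups overlapped through ZT8LL alone, and 18 of 27 nephritic mice lay above it. The log2 difference was 4.76 (SE 0.41, adjusted p = 9.81e-15).

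Cd79b ran from 0.636 to 7.02 CPM in young mice (median 1.18) and from 3.64 to 71.5 CPM in nephritic mice (median 10.4). The log2 difference was 3.04 (SE 0.26, adjusted p = 9.08e-15), and 19 of 27 nephritic mice were above every young mouse. Both chains of the receptor rose.

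Ms4a1 was close to the limit of detection in young kidneys. It had 0 counts in 5 of 30 young mice, where 3 counts would have been 0.0985 to 0.124 CPM, a median of 0.111 CPM and a highest value of 2.58 CPM in ZT8LL. In nephritic mice it ran from 0.622 to 53.7 CPM (median 5.61), and 21 of 27 mice were above every young mouse. The log2 difference was 5.01 (SE 0.42, adjusted p = 5.43e-15).

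Blk was at 0.0324 to 2.22 CPM in young mice (median 0.203) and 0.558 to 21.4 CPM in nephritic mice (median 2.41). Its log2 difference was 3.30 (SE 0.33, adjusted p = 2.2e-12). Cr2 moved less. It was at 0.694 to 2.22 CPM in young mice (median 1.18) and at 1.30 to 10.8 CPM in nephritic mice (median 2.92), a log2 difference of 1.26 (SE 0.16, adjusted p = 1.27e-09). The Cr2 groups overlapped in 8 nephritic mice, with or without ZT8LL.

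The coactivator Pou2af1 showed the largest difference of the 9 and ranked 10 among the 17521 genes tested. Young mice had 0.0324 to 2.18 CPM (median 0.168) and nephritic mice 0.721 to 98.6 CPM (median 8.98). In 25 of 27 nephritic mice the level was above that of every young mouse. The log2 difference was 5.62 (SE 0.38, adjusted p = 2.79e-18).

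The genes of the secretory state rose as well, by different amounts. Mzb1 was at 0.437 to 3.79 CPM in young mice (median 1.52) and 1.64 to 158 CPM in nephritic mice (median 12.9), a log2 difference of 3.32 (SE 0.28, adjusted p = 1.04e-14). Derl3 was at 0.721 to 3.09 CPM in young mice (median 1.61) and 1.41 to 33.0 CPM in nephritic mice (median 5.12), a log2 difference of 1.77 (SE 0.20, adjusted p = 1.09e-10). Prdm1 changed least, from 0.96 to 3.52 CPM in young mice (median 1.73) to 1.21 to 9.91 CPM in nephritic mice (median 3.02). Its log2 difference was 0.81 (SE 0.14, adjusted p = 1.06e-06), and 8 of 27 nephritic mice lay above every young mouse.

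**Figure D1:**
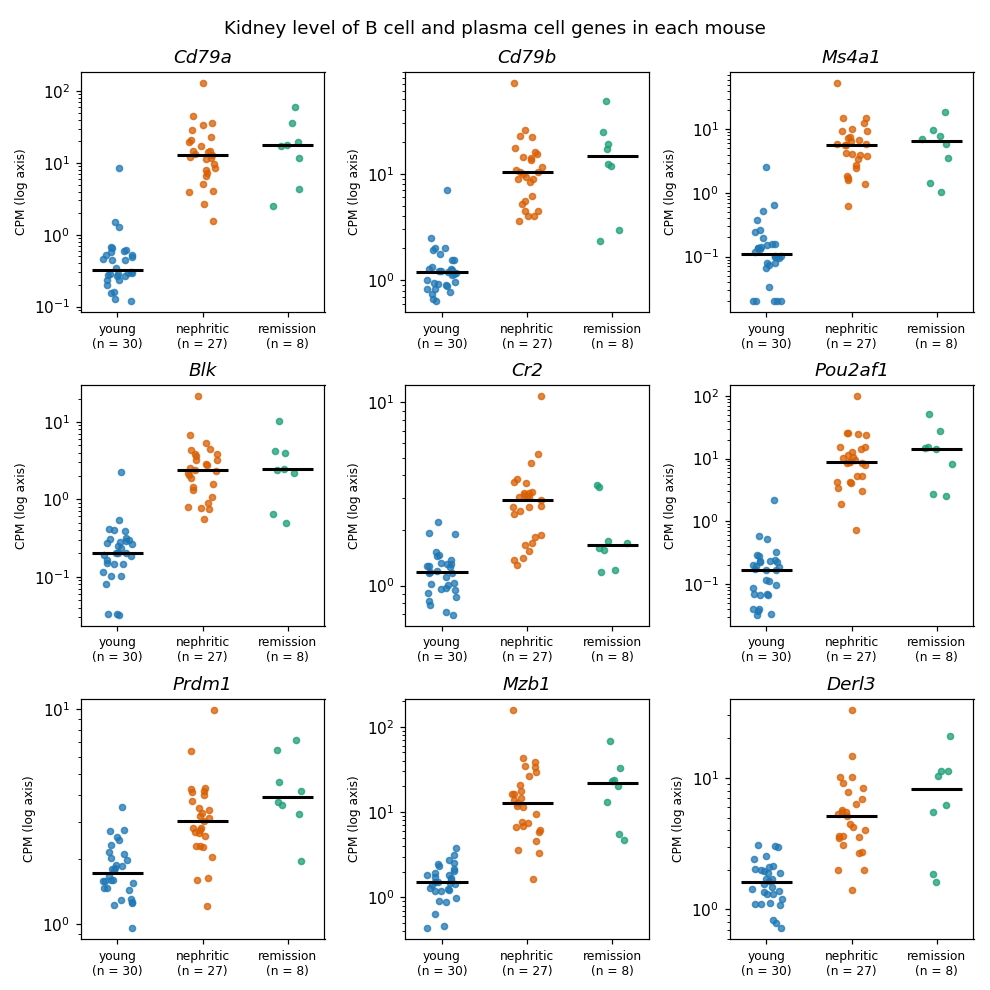
Level of each gene in CPM on a log axis, one point per mouse, in young (n = 30), nephritic (n = 27) and remission mice (n = 8), with bars at the medians and 0 counts drawn at 0.02 CPM. The single high young point of Cd79a, Ms4a1 and Blk is mouse ZT8LL, and the highest nephritic point in every panel is HIL5RU.

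No gene of the 9 had every nephritic mouse above every young mouse, where 0.89% of all genes did. Without ZT8LL, 4 did (Cd79a, Cd79b, Blk and Pou2af1), where 0.965% of all genes did. Of the 27 nephritic mice, 26 were then above every young mouse for Ms4a1 and Mzb1, 21 for Derl3, 19 for Cr2 and 8 for Prdm1. ZT8LL was the highest young mouse for 7 of the 9 genes and was left out after seeing the data. The counts without it therefore favour these genes and cannot be compared with the share over all genes. The 9 of 9 count was the same under all 35 alternatives, which included leaving out each nephritic mouse and ZT8LL.

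Nephritic mice differed widely from each other. The highest mouse exceeded the lowest by 137-fold for Pou2af1, 96.3-fold for Mzb1, 86.3-fold for Ms4a1 and 84.7-fold for Cd79a, but by 8.3-fold for Cr2 and 8.18-fold for Prdm1. RX7LU, of ZT8, was the lowest nephritic mouse for 7 of the 9 genes. HIL5RU had Cd79a at 130.4 CPM, where the next nephritic mouse, RX8LL, had 44.5 CPM. Summed over the 9 T cell markers HIL5RU was at 213 CPM, 5.61-fold above the nephritic median, over the 9 myeloid markers 2.61-fold above it and over the 7 kidney markers at 0.353 of it. ZT8LL was 1.74-fold above the young median in the summed B cell identity genes and 1.48-fold in T cell markers, and it was at 0.752 of it in myeloid markers. Some single genes stood further apart than these sums. In ZT8LL Cd79a was at 8.59 CPM against a young median of 0.323 CPM, and Ms4a1 at 2.58 against 0.111 CPM. Prdm1 and Derl3 were highest in other young mice. Cd3e was at most 1.17 CPM in young mice at ZT8, against a young median of 0.882 CPM. The part of the differences in the summed lists in the B cell values was not tested.

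The next question was whether the genes varied together between nephritic mice. All 36 pairs passed the test of correlation. Pearson's r of log2 CPM over the 27 nephritic mice ran from 0.638 (Cr2 with Derl3) to 0.979 (Pou2af1 with Mzb1), with a median of 0.861, and each pair passed a permutation test after adjustment over 36 pairs (largest adjusted p = 0.00055). Of all pairs of the 17521 genes, 4.59% had an r of 0.638 or more. Spearman's rho ran from 0.377 to 0.977, and 35 of 36 passed (largest adjusted p = 0.054 by permutation). Without HIL5RU r ran from 0.453 to 0.972 and all 36 pairs passed. Leaving out the 2 mice farthest from the median of the first gene of a pair gave 0.383 to 0.969, with 35 passing, and in the 22 Set 2 mice alone all 36 passed. On residuals after time point and RNASeq set, r ran from 0.621 to 0.979.

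The pairs were not equally close. Among the 5 surface and receptor genes (10 pairs) the median r was 0.906, among Prdm1, Mzb1 and Derl3 (3 pairs) 0.847, and between these groups (15 pairs) 0.792. Pou2af1, which acts in both B cells and plasma cells, had a median r of 0.924 with the other 8. These medians describe the pairs and were not tested against each other.

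In young mice the same pairs had lower r, and most of those that passed did not pass without 1 mouse. Over 30 young mice r ran from -0.337 (Prdm1 with Mzb1) to 0.802 (Cd79a with Pou2af1), the median was 0.349 and 17 of 36 pairs passed by permutation, each with r of 0.421 or more, as 10.3% of all gene pairs had. Spearman's rho had a median of 0.214 and 1 pair passed. Without ZT8LL the median r was 0.213 and 1 pair passed, and without the 2 farthest mice 0 passed by permutation, where the smallest adjusted p was 0.093. Among Prdm1, Mzb1 and Derl3 r was -0.337 to 0.0874 in young mice. Median counts per young library were 51, 44 and 45 for these 3 genes and 3 to 32 for the other 6. The difference of r between groups was not tested.

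In remission mice r ran from 0.61 (Cr2 with Derl3) to 0.993 (Pou2af1 with Mzb1), with a median of 0.96 over 8 mice. In an exact permutation test over all orders of the mice 29 of 36 pairs passed, each with r of 0.740 or more, as 4.25% of all gene pairs had. Spearman's rho had a median of 0.881, and 27 passed an exact permutation test. Without the 2 farthest mice, which leaves 6, the median r was 0.935 and 24 passed the exact permutation test. The lowest r was 0.649 among Prdm1, Mzb1 and Derl3, and 0.67 among the surface and receptor genes.

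**Figure D2:**
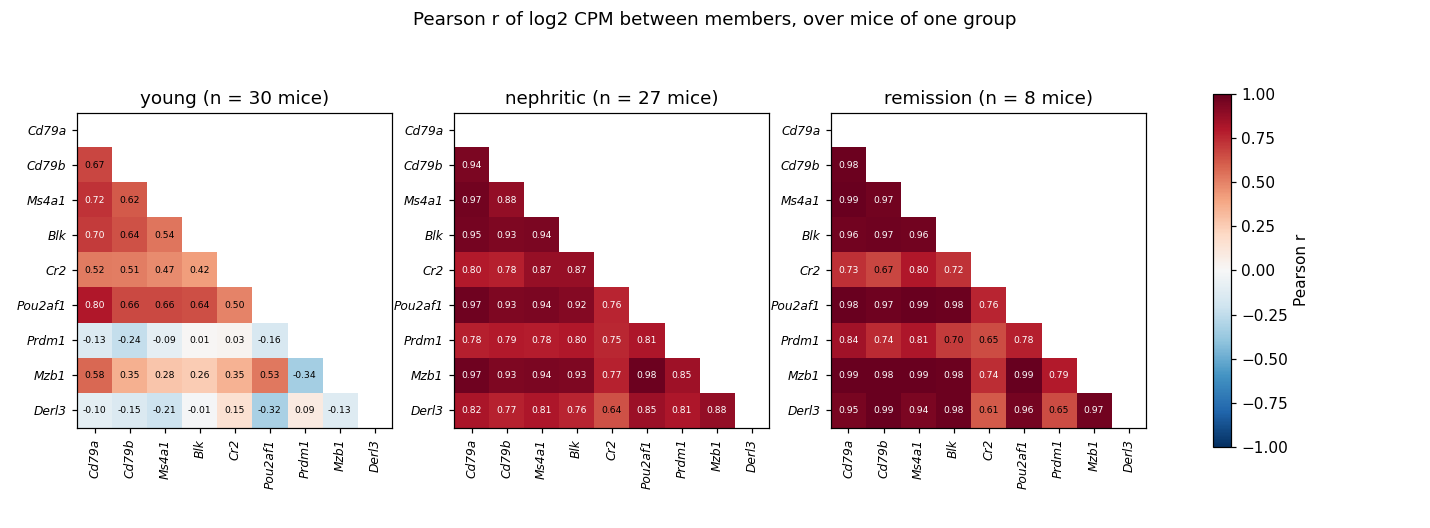
Pearson's r of log2 CPM for each pair of the 9 genes over the mice of 1 group, printed in each cell and coloured from -1 (blue) to 1 (red). Every nephritic and remission pair is positive, with lowest values of 0.638 and 0.61, while in young mice Prdm1 and Derl3 have values near or below 0 with most other genes.

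The B cell genes were set beside a T cell gene, Cd3e, a macrophage gene, Csf1r, and a tubular injury gene, Lcn2, in 27 relations over nephritic mice. Csf1r itself was higher in nephritic than young mice by 0.21 on the log2 scale (SE 0.06). This was the least of the 9 myeloid markers, whose median was 2.55, and no other myeloid marker was tested in this way. All 9 genes varied with Cd3e, with r from 0.727 (Cr2) to 0.932 (Cd79b) and the largest adjusted p of 0.00021 by permutation. Of the other genes tested, 3.68% had an r with Cd3e of 0.727 or more. Spearman's rho with Cd3e ran from 0.593 to 0.924. With Csf1r r was 0.428 to 0.623 and all 9 passed by permutation, where 8.28% of genes had an r of 0.428 or more, but by Spearman's rho 3 passed (Ms4a1, Cr2 and Prdm1), and without HIL5RU 4 passed (Ms4a1, Cr2, Blk and Prdm1). On residuals after time point and set, and without the 2 farthest mice, Cr2 alone passed with Csf1r by permutation, and in Set 2 alone 0 of 9 did (smallest adjusted p = 0.083). With Lcn2 none of the 9 passed by permutation. There r ran from -0.0552 (Cr2) to 0.294 (Derl3) and the smallest adjusted p was 0.19. The mouse CRS60 had the highest Lcn2 of the nephritic mice, 709 CPM, with Cd79a at 5.04 CPM, and RX8LL had Lcn2 at 8.24 CPM with Cd79a at 44.5 CPM. In the 8 remission mice r with Lcn2 was 0.503 to 0.869, and 7 of 9 passed an exact permutation test adjusted over 27 relations, each with r of 0.792 or more, as 8.14% of genes had. With Cd3e and with Csf1r 7 of 9 passed the exact permutation test as well, where 3.71% and 5.58% of genes had an r as high as the weakest of those 7. The difference between nephritic and remission mice in this relation was not tested.

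Genes with the pattern most like the members were sought among the other 17512 tested genes by Pearson's r over the 27 nephritic mice. For the mean of Cd79a, Cd79b, Ms4a1, Blk and Cr2 they included Fcrl1 (0.973), Fcrla (0.961), Pla2g2d (0.96) and Cd37 (0.96). Of these, Fcrl1 and Fcrla encode Fc receptor-like proteins of B cells. For the mean of Mzb1, Derl3 and Prdm1 they were Slamf7 (0.958), Traf3ip3 (0.956), Cd69 (0.95), Ptprc (0.949) and Grap2 (0.947). Slamf7 is a surface protein of plasma cells and other lymphocytes, while Ptprc, which encodes CD45, is common to leukocytes and Cd69 marks activated lymphocytes.

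Other genes of the lineage were higher in nephritic than young mice in most lists. Of 21 B cell identity genes 20 rose and 0 fell, with a median log2 difference of 3.30. Fcrl5, a receptor of the Fc receptor-like family, differed by 7.55 (SE 0.43, adjusted p = 2.47e-21) and Fcrl1 by 4.47. Fcrl5 was at 0 to 0.0983 CPM in young mice and 0.229 to 22.6 CPM in nephritic mice, so its fold depends on the prior count. Of 17 B cell receptor signalling genes 15 rose and 0 fell (median 0.98), among them the adaptor Pik3ap1 (2.86) and the kinase Btk (2.72).

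Plasma cell genes were less uniform. Of 18 genes of plasma cells and antibody secretion 10 rose, 1 fell and 7 did not pass, with a median of 0.33. The J chain of secreted antibody, Jchain, was at 1.83 to 36.4 CPM in young mice (median 4.29) and at 13.8 to 2224 CPM in nephritic mice (median 177), a log2 difference of 5.11 (SE 0.38, adjusted p = 1.07e-16). Slamf7 differed by 2.72 and the transcription factor Irf4 by 2.71. Of 13 antibody chain genes 1, Igll1, was listed in the tables, and it did not pass (log2 difference -0.33). The immunoglobulin constant chains themselves were not analysed here.

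Of 7 germinal centre genes tested 6 rose and 0 fell (median 3.21). Il21, a T cell cytokine that acts on B cells, differed by 4.58 and Rgs13 by 4.27, and both had a young median of 0, so that these folds depend on the prior count. Of 11 genes of B cell homing and survival 9 rose and 1 fell (median 1.82). The B cell attracting chemokine Cxcl13 was at 0.0988 to 1.77 CPM in young and 0.786 to 118 CPM in nephritic mice, a log2 difference of 4.82 (SE 0.34, adjusted p = 6.78e-18). Ltb differed by 3.15 and Ccl19 by 3.05.

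Markers of other immune cells rose at the same time, and their part in the B cell values was not tested. All 8 costimulation genes rose (median 2.23, led by Ctla4 at 3.79, Cd28 at 2.79 and Icos at 2.36). So did all 9 T cell markers (median 2.49, led by Cd2 at 3.40, Cd5 at 3.09 and Cd3g at 2.90) and all 9 myeloid markers (median 2.55, led by Itgam at 4.46, C1qb at 2.84 and C1qa at 2.64). Summed T cell markers were at 6.84 to 14.6 CPM in young, 11.4 to 213 CPM in nephritic and 12.7 to 105 CPM in remission mice, and summed myeloid markers at 116 to 268, 290 to 1860 and 313 to 1080 CPM. Plasmacytoid dendritic cells share some genes with plasma cells. Their markers moved less than the T cell and myeloid markers, with a median of 0.326, near the 0.333 of the plasma cell list. Of 6 markers 3 rose (Pacsin1 by 1.25, Runx2 by 0.89 and Ccr9 by 0.60) and 1 fell, and their sum was at 34.6 to 52.1 CPM in young and 33.8 to 74.7 CPM in nephritic mice. Of 7 kidney markers 2 rose and 3 fell, with Lrp2 of the proximal tubule lower by a log2 difference of -0.94 and Slc34a1 of the same segment at -0.80. No tested gene of any list was at 0 in every mouse of a group.

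**Figure D3:**
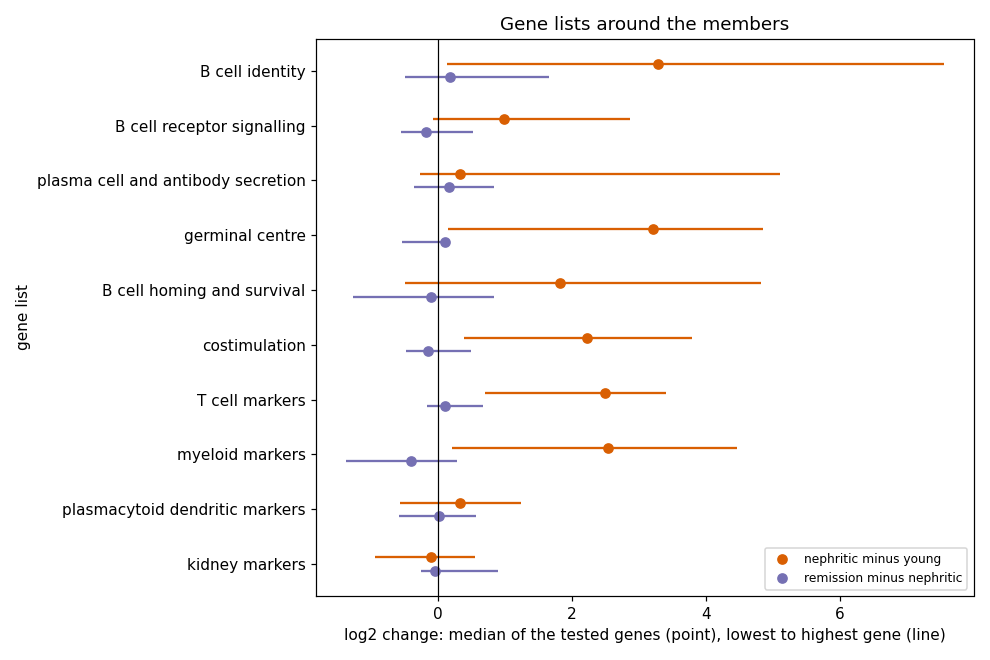
Median log2 difference of the tested genes of each list (points) with the lowest and highest gene (lines), nephritic minus young in orange and remission minus nephritic in purple. Medians of nephritic minus young lie between 0.98 and 3.30 for the B cell identity, receptor signalling, germinal centre, homing, costimulation, T cell and myeloid lists, while the remission minus nephritic medians lie between -0.40 and 0.18.

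The third question was what stays in remission, which could be asked at ZT0 and ZT12, the times of the remission mice. None of the 9 genes differed between remission and nephritic mice at an adjusted p of 0.05 by edgeR, where 37.5% of 16841 genes did, and 0 of 9 had an unadjusted p under 0.05. DESeq2 and limma also passed 0 of 9. The median log2 difference, remission minus nephritic, was 0.41 over the 9 genes and -0.02 over all genes. The 95% intervals of the 9 differences reached from -1.22 to 1.52, so that decreases to 0.431 and increases to 2.86-fold remain within these intervals. A p that misses the threshold does not show that the levels were equal.

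Cd79a was at 2.51 to 60.6 CPM in remission mice (median 17.7), with a log2 difference from nephritic mice of 0.44 (95% interval -0.57 to 1.46). Ms4a1 was at 1.03 to 18.9 CPM (median 6.52), a difference of 0.12 (-0.91 to 1.15). Cd79b was at 2.31 to 48.3 CPM (median 14.7), a difference of 0.49 (-0.44 to 1.41). The nephritic range over all 6 time points held all 8 remission values of Cd79a and Ms4a1, and 6 of 8 of Cd79b. At ZT0 and ZT12 alone the lowest nephritic values were 3.98 CPM (Cd79a) and 1.58 CPM (Ms4a1), above the lowest remission values.

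Blk was at 0.489 to 10.3 CPM in remission mice (median 2.45) and differed from nephritic mice by 0.22 (-0.81 to 1.26). Cr2 was at 1.18 to 3.53 CPM (median 1.66), and its difference of -0.55 (-1.22 to 0.12, adjusted p = 0.191) was the only one of the 9 below 0. For Cr2, 2 of 8 remission mice were above the nephritic median over all 6 time points, against 5 to 7 for the other genes. That median of Cr2 was 2.92 CPM, against 1.71 CPM at ZT0 and 3.42 CPM at ZT12.

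Pou2af1 was at 2.49 to 52.2 CPM in remission mice (median 14.3), a difference of 0.58 (-0.37 to 1.52). Mzb1 was at 4.72 to 67.1 CPM (median 21.7), a difference of 0.41 (-0.52 to 1.33). Derl3 was at 1.61 to 20.9 CPM (median 8.27), a difference of 0.23 (-0.60 to 1.06). Prdm1 was at 1.97 to 7.17 CPM (median 3.92), a difference of 0.50 (-0.04 to 1.04, adjusted p = 0.136). Without RX11RU, whose repeat did not match it, Prdm1 passed with a difference of 0.64 (adjusted p = 0.0493), and with repeat libraries in place of originals with 0.63 (adjusted p = 0.0496).

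Against young mice, all 9 genes were higher in remission, where 21.2% of all genes were. The log2 differences were 7.07 (SE 0.58) for Pou2af1, 5.90 for Cd79a, 5.80 for Ms4a1, 4.23 for Mzb1, 3.97 for Blk, 3.91 for Cd79b, 2.48 for Derl3, 1.44 for Prdm1 and 0.80 (SE 0.32, adjusted p = 0.0451) for Cr2. Pou2af1 ranked 5 among the 16841 genes tested. Every remission mouse was above every young mouse of all 6 time points for 2 of the 9 genes, Pou2af1 and Mzb1, where 1.93% of all genes showed this. The log2 differences, in contrast, use young mice of ZT0 and ZT12 only. Without ZT8LL, a mouse of ZT8, 4 genes showed it (Cd79a, Ms4a1, Pou2af1 and Mzb1), where 2.04% of all genes did. As ZT8LL was the highest young mouse for 7 of the 9 genes, that count cannot be compared with that share. The call of Cr2 was lost without s14, s3, s4 or s8 (adjusted p = 0.114, 0.0557, 0.162 and 0.0542). It was also lost in Set 2 alone, with limma and with no filter on low counts.

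The remission and the 4 repeat libraries were treated here as a series apart from the others, which is an assumption. Under it, library series and remission cannot be told apart except through the 4 repeated mice. With a term for the series estimated from these, 0 of 9 genes differed from nephritic mice, where 23.6% of genes did, and 9 of 9 were higher than in young mice, where 6.88% were. That term rests in part on RX11RU, whose repeat did not match it. With the other 3 repeats alone, 0 of 9 differed from nephritic mice (21.3% of genes) and 8 of 9 were higher than in young mice (4.7% of genes), all but Cr2 (log2 difference 1.22, adjusted p = 0.123). Summed costimulation genes, the targets of CTLA4Ig and anti-CD40L among them, were at 18.9 to 60.0 CPM in remission mice and 17.6 to 111 CPM in nephritic mice.

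**Figure D4:**
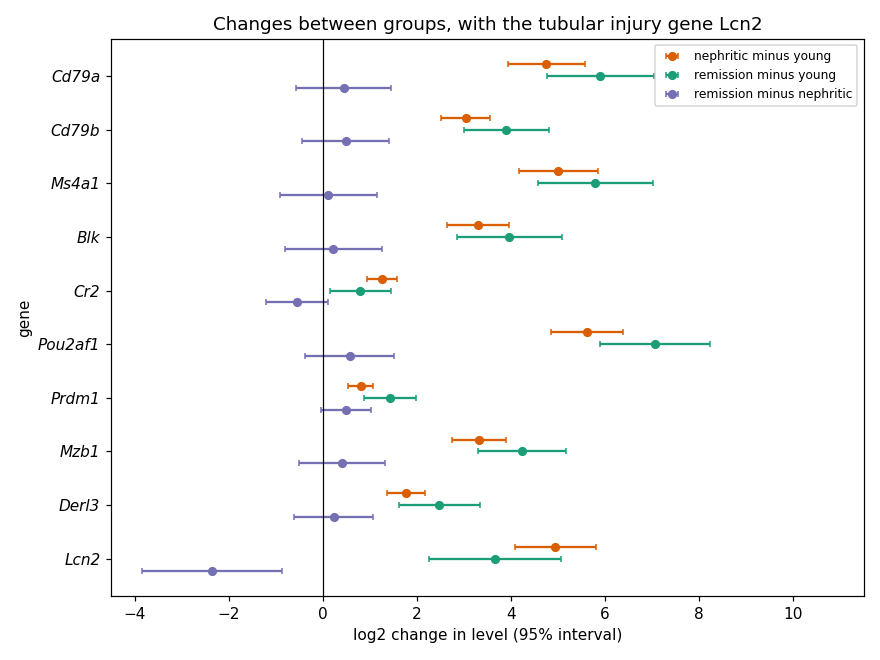
Log2 differences of the 9 genes and of Lcn2 with 95% intervals, nephritic minus young, remission minus young and remission minus nephritic. For all 9 genes the purple intervals (remission minus nephritic) include 0 and the other 2 intervals lie above 0, while the purple interval of Lcn2 lies below 0.

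Lcn2 was chosen as a contrast because it marks tubular injury. It ran from 1.51 to 17.2 CPM in young mice, 4.85 to 709 CPM in nephritic mice and 7.09 to 65.1 CPM in remission mice, and fell in remission by 2.35 on the log2 scale (SE 0.73, adjusted p = 0.0115), though not with limma (adjusted p = 0.0995) or in nephritic and remission mice alone (adjusted p = 0.0816). The difference between the B cell genes and Lcn2 was tested by the log2 ratio of each gene to Lcn2 within a mouse. It was higher in remission than in nephritic mice by 1.35 (Cr2) to 2.20 (Prdm1). None of the 9 passed an exact permutation test over 203490 splits of 8 remission and 13 nephritic mice after adjustment over 9 (smallest adjusted p = 0.11), and unadjusted p was under 0.05 for 4 (Prdm1, Mzb1, Cd79b and Pou2af1). The SD of the ratio was 2.40 to 2.84 in nephritic and 0.694 to 0.924 in remission mice.

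Remission mice also differed widely among themselves. The mouse s14 was the highest for all 9 genes and s10 the lowest for 6, and both were taken at ZT12. Cd79a was 60.6, 36.3, 19.8 and 2.51 CPM in s14, s12, s9 and s10 at ZT12, and 17.97, 17.4, 11.6 and 4.35 CPM in s4, s8, s3 and s1 at ZT0. The times overlapped. The highest mouse exceeded the lowest by 24.2-fold for Cd79a and 2.99-fold for Cr2. In s14, T cell markers were 2.4-fold and myeloid markers 1.75-fold above the remission median, and Lcn2 was at 65.1 CPM, the highest of the 8. In s1 Lcn2 was at 7.09 CPM, the lowest.

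The wider lists stand beside a share of 37.5% of all genes that differed between remission and nephritic mice. Of 21 B cell identity genes 1 was higher in remission (Pax5, named after its value was seen, 1.67) and 0 lower, of 6 germinal centre genes none passed, and of 8 costimulation genes and 8 T cell markers none passed. In B cell receptor signalling 0 were higher and 2 lower of 17, in plasma cell genes 2 and 1 of 18, in homing and survival 1 and 1 of 11, in myeloid markers 1 and 2 of 9 (median -0.40), in plasmacytoid dendritic markers 1 and 0 of 6 and in kidney markers 1 and 0 of 7. Against young mice, 20 of 21 B cell identity genes, 14 of 17 signalling genes and 13 of 18 plasma cell genes were higher. So were 4 of 6 germinal centre genes and 9 of 11 homing genes, where 21.2% of all genes were. Jchain was at 61.0 to 725 CPM in remission mice (median 304) and Cxcl13 at 1.48 to 41.2 CPM (median 9.64). Their log2 differences from nephritic mice were 0.37 (adjusted p = 0.632) and -0.15 (adjusted p = 0.838).

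The last question was whether these transcripts varied with the time of day. Over the 6 time points of nephritic mice 8 of the 9 genes passed (all but Prdm1, adjusted p = 0.0789), where 21.6% of genes did. Medians were highest at ZT16 for 7 genes and at ZT12 for Cr2 and Derl3. They were lowest at ZT8 for 7 genes and at ZT0 for Cr2 and Cd79b. Each mouse gave 1 time point, so the values compare different mice.

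Cd79a in nephritic mice was 1.54, 4.08, 6.58 and 13.4 CPM at ZT8, and 22.8, 35.7 and 44.5 CPM at ZT16. All 3 mice at ZT16 were above all 4 at ZT8. At ZT12 the 6 mice ran from 13.03 to 130.4 CPM (median 21.4), at ZT0 the 7 from 3.98 to 20.6 CPM (median 8.52), at ZT4 the 4 from 2.69 to 19.9 CPM (median 12.3) and at ZT20 the 3 from 9.70 to 14.7 CPM (median 12.2). The adjusted p over the 6 times was 0.0158.

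Mzb1 was 1.64, 3.30, 6.72 and 9.55 CPM at ZT8 and 20.9, 33.8 and 43.3 CPM at ZT16 (adjusted p = 0.0224). Derl3 was 1.41, 2.01, 2.75 and 3.62 CPM at ZT8 and 7.84, 8.33 and 10.2 CPM at ZT16 (adjusted p = 0.0132). Every ZT16 mouse was above every ZT8 mouse for 8 of the 9 genes, where 11.2% of genes showed this, and these times were chosen after their medians were seen. The exception, Cr2, was 1.54, 1.67, 3.10 and 3.22 CPM at ZT8 and 3.06, 3.06 and 4.66 CPM at ZT16 (adjusted p = 0.041). Cd3e moved in the same order, with medians of 2.31 CPM at ZT8, 4.62 at ZT12 and 6.23 CPM at ZT16 (adjusted p = 0.0119), and Lcn2 did not pass (adjusted p = 0.786).

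**Figure D5:**
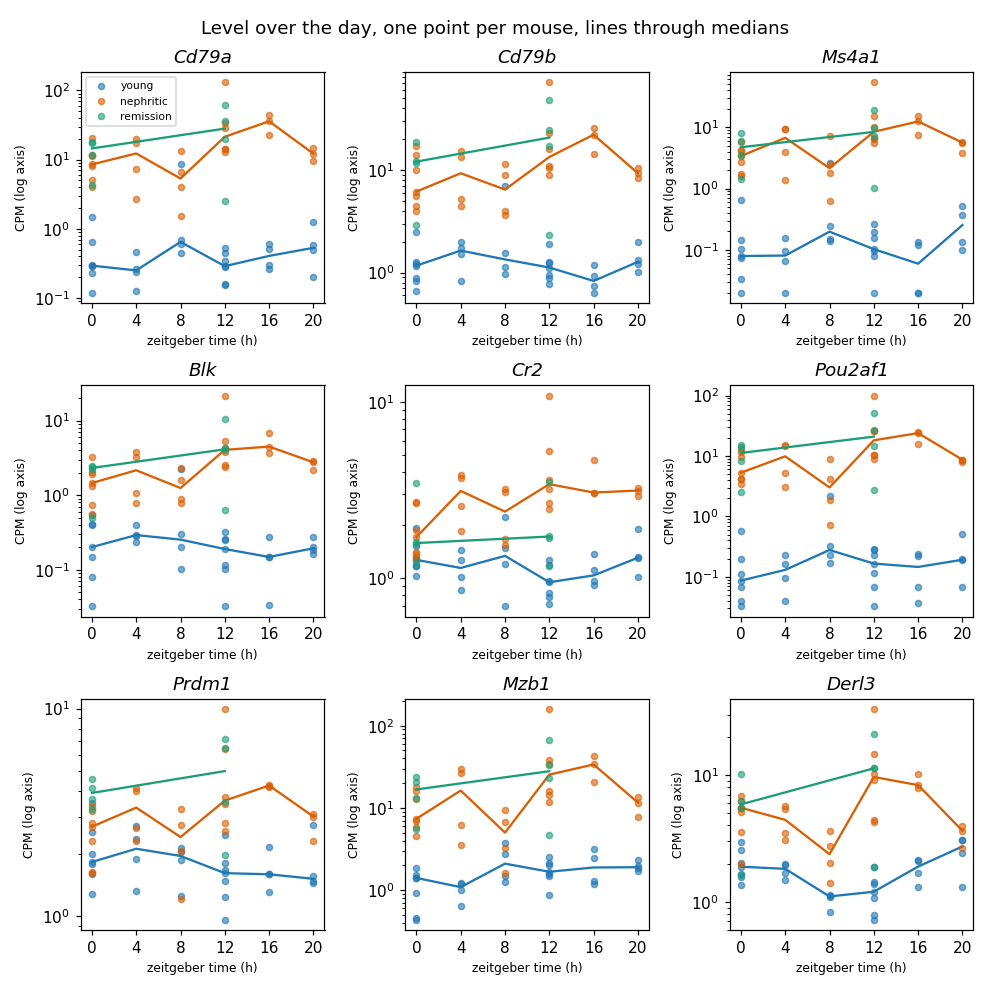
Level in CPM on a log axis against zeitgeber time for each gene, one point per mouse with lines through the medians, in young (blue), nephritic (orange) and remission mice (green), with 0 counts drawn at 0.02 CPM. The nephritic medians are lowest at ZT0 or ZT8 and highest at ZT12 or ZT16, and the 3 or 4 mice behind some points spread widely.

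The calls depended on how time was fitted and on few mice. A 24 h cosine in place of separate time points passed 0 of 9 genes in nephritic mice with edgeR, where it passed 2.15% of all genes, and without the ZT16 mice 2 of 9 passed, Blk and Derl3, where 15.6% of genes did. Leaving out RX8LL or RX9RU, both of ZT16, left 5 of 9, as did Set 2 alone. Leaving out HIL5RU left 6 of 9, as did leaving out RX11RU, and each time Ms4a1 and Cr2 were lost.

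In young mice 3 of 9 genes passed over the time points (Cd79a, Ms4a1 and Derl3), where 39.8% of genes did. Cd79a was 0.447, 0.613, 0.682 and 8.59 CPM at ZT8, the last in ZT8LL. Without ZT8LL 1 of 9 passed, Derl3, where 36.8% of genes did. Derl3 was 0.824, 1.10, 1.10 and 1.13 CPM at ZT8 and 1.30, 2.41, 3.05 and 3.09 CPM at ZT20 (adjusted p = 0.00384), and it also passed with the 24 h cosine. Leaving out ZT8LU left 6 of 9 and leaving out ZT8RU left 5 of 9. The difference in time course between nephritic and young mice was called for all 9 genes (adjusted p = 0.00426 for Derl3 to 0.0485 for Prdm1), where 6.27% of genes were. Without ZT8LL it was called for 3 of 9 (Cr2, Prdm1 and Derl3), where 5.36% of genes were. Without ZT8LL and HIL5RU it was called for 2 of 9 (Cr2 and Derl3), where 4.08% were, and with the 24 h cosine for 0 of 9, where 0.691% were.

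In remission mice the ZT12 median was above the ZT0 median for all 9 genes, yet none of the 9 passed the comparison of ZT0 with ZT12. Of 14451 genes, 0 passed by edgeR (0%), 1449 had an unadjusted p under 0.05, and DESeq2 passed 24. Without s9, 202 of 14316 genes passed. None of the 9 passed under any of the 12 alternatives, and 0 of 9 had an unadjusted p under 0.05. The log2 differences, ZT0 minus ZT12, ran from -1.35 (Blk, 95% interval -2.95 to 0.26) to -0.09 (Cr2, -1.04 to 0.87).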

How the data were processed

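Kidney RNA was sequenced in 65 mice, with 4 repeat libraries of mice already sequenced. The tables deposited by the authors hold 1 raw count of reads for each symbol and mouse, not normalized. The study's methods name Burrows-Wheeler alignment and counting of uniquely aligned reads, and the submitters' processing notes name HISAT and mm10. Which aligner made the counts is not settled by these sources, and whether counting used strand is not given. Tables listed 24538 symbols, of which 15 had empty cells throughout and were left out. Total counts per library were 13311278 to 48075977. Floors at 0 counts cover counting error only, and the 95% intervals of the fits include the spread between mice.

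From these counts, genes were kept where the libraries in the test summed to 100 counts or more, and were tested with edgeR 4.0.16 (quasi-likelihood test, TMM scaling, R 4.3.3), with Benjamini-Hochberg adjustment over all genes tested and a threshold of 0.05. Covariates were the time point and the RNASeq set of the study's sample table, assigned here from the titles. The remission fits used young, nephritic and remission mice of ZT0 and ZT12. CPM used TMM factors over all 69 libraries, and correlations used log2 CPM with a prior count of 2. Correlation p-values came from 100000 permutations, two-sided, or from all orders in remission mice. The ratios to Lcn2 were tested by two-sided exact permutation, a test chosen after seeing the data. Alternatives were RLE size factors, DESeq2 1.42.0, limma 3.58.1, no filter, Set 2 alone, no set covariate, a 24 h cosine, repeat libraries, a series covariate, 2 groups alone and leaving out mice. The series covariate without the RX11RU repeat, and the omissions of HIL5RU, ZT8LL, RX11RU and the ZT16 mice, and of each mouse in the tests over time, were added after seeing the data. The tests were run first on simulated counts. A log2 change of 1 was recovered in 90 of 99 genes for nephritic against young and 71 of 99 for remission against nephritic mice. Placed at ZT16, it was recovered in 42 of 99 over time in nephritic mice and 35 of 99 for the difference in time course.

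The members and lists were chosen with earlier results of these data known. The genes named are the 9 members, the 3 of each list with the largest change past the threshold, and the 5 most like each group of members, and some that this rule names are not reported here. Gene positions and promoters came from RefSeq on GRCm38.p6. The microarrays and C57BL/6 kidneys of the study were not used here.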

Additional observations from a re-analysis of the deposited data

Results flagged for a closer look

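Among 117 groups of 4 to 10 mice examined for a mouse standing apart on the log2 CPM scale, 6 were singled out, and chance singles out about 1 in 20 groups. The number in each case is the gap to the nearest mouse as a share of the range. In young mice at ZT8, ZT8LL had Cd79a at 8.59 CPM against 0.447 to 0.682 CPM in the others (0.866), and Ms4a1 at 2.58 against 0.137 to 0.245 CPM (0.835). HIL5RU had Blk at 21.4 CPM against 2.41 to 5.32 CPM in the other nephritic mice at ZT12 (0.64). In remission mice at ZT0, s1 had Blk at 0.489 CPM against 2.21 to 2.49 CPM (0.924). ZT20LU had Prdm1 at 2.75 CPM against 1.45 to 1.55 CPM in young mice at ZT20 (0.889). ZT8LU had Derl3 at 0.824 CPM against 1.10 to 1.13 CPM in young mice at ZT8 (0.912).

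The time course differed between nephritic and young mice in the test of the difference itself for Cd79a (adjusted p = 0.00636), Cd79b (0.0327), Ms4a1 (0.0177), Cr2 (0.0202), Blk (0.0172), Pou2af1 (0.0174), Prdm1 (0.0485), Mzb1 (0.0401) and Derl3 (0.00426), all by edgeR's quasi-likelihood test adjusted over 17521 genes. Without ZT8LL and HIL5RU, Cr2 and Derl3 passed.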

How the results depend on the processing

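The direction and call of nephritic against young mice held for all 9 genes under each alternative run. Of the single-gene values of remission against nephritic mice, which mostly lie near 0, several turned sign without passing the test on either side. With no set covariate Cd79a was -0.02, Ms4a1 -0.20, Blk -0.13 and Cd3e -0.26. With limma Ms4a1 was -0.145, Blk -0.029 and Cd3e -0.16, and with DESeq2 Ms4a1 was -0.088. With the series covariate Cr2 was 0.035 and Cd3e -0.001, and -0.176 with 3 repeats. Leaving out each remission mouse gave -0.11 to 0.30 for Ms4a1, -0.13 to 0.39 for Blk, -0.045 to 0.382 for Derl3 and -0.18 to 0.17 for Cd3e. Remission against nephritic mice passed 1 gene, Prdm1, with repeat libraries or without RX11RU. In young mice 3 genes varied over time in the reported fit, 1 with the 24 h cosine, 6 with DESeq2, 1 with limma, 5 with no set covariate and 1 without ZT8LL, and leaving out each mouse gave 1 to 6. In nephritic mice 8 varied, 0 with the cosine, 5 in Set 2 alone and 2 without the ZT16 mice, and leaving out each mouse gave 5 to 9. The different time course was called for 9 genes, 0 with the cosine, 3 without ZT8LL and 2 without ZT8LL and HIL5RU. Of 27 relations with Cd3e, Csf1r and Lcn2, 18 passed, 9 in Set 2 alone, 10 on residuals and 10 without the 2 farthest mice. The causes of these changes were not tested. For the different time course, mice other than ZT8LL, HIL5RU and those of ZT16 were not left out in turn.

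Young kidneys hold few reads of several members (a median of 3 counts for Ms4a1), and remission rests on 8 mice in shallower libraries.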
